A study of Mus musculus with 23 samples.

Results

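The genes described here encode the nuclear subunits of the mitochondrial respiratory chain and ATP synthase. They are all gene symbols of the array annotation that begin with Nduf, Uqcr, Cox followed by a digit from 4 to 8, or Atp5. The patterns took 89 symbols, of which 85 had a probe set that carried a single symbol, out of 19938 such symbols on the array. Of these, 83 passed a filter on low signal, out of 15542 genes tested. Cox7b2 and Cox8b did not pass, and Cox7c, Ndufb4, Ndufb4b and Ndufs5-ps lay only on probe sets shared with another symbol. The 83 genes were 6 core subunits, 28 accessory subunits and 7 assembly factors of complex I, 8 subunits of complex III, 17 of complex IV and 17 of ATP synthase. The name patterns leave out complex II, cytochrome c, the complex III subunit cytochrome c1 (Cyc1) and the subunits encoded by mitochondrial DNA. They take in the complex I assembly factors, which are not part of the finished enzyme. Ndufa4 and Ndufa4l2 carry complex I names, and were counted with complex IV, where the Ndufa4 protein is now placed.

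The samples were leukemic cells of 10 Pax5+/- mice (titled pro-B cells, described as leukemic marrow, with no sort stated), preleukemic cells at the pro-B and pre-B stages of 7 Pax5+/- mice, leukemic cells of 3 mice with an intact Pax5 (wild type, WT), and preleukemic cells of the same kind from 3 WT mice. Pax5+/- mice carry 1 working copy of Pax5, a gene whose product, a transcription factor, holds cells to the B lineage. Every mouse, WT mice included, had received a single dose of 2 Gy at 2 months of age, and the preleukemic cells were taken 3 weeks after it, so no unirradiated sample is part of these comparisons. Total RNA of each bone marrow sample was measured on 1 array, and strain and sex were not stated.

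The respiratory chain passes electrons from NADH and succinate through complexes I to IV to oxygen and pumps protons across the inner mitochondrial membrane, and ATP synthase uses the proton gradient to make ATP. Its complexes join subunits from the nuclear genome with a few encoded in mitochondrial DNA, and dedicated assembly factors put them together. Among developing B cells, cycling precursors are known for active oxidative phosphorylation. Transcription of the nuclear subunits is commonly linked to the factors NRF1, GABP, YY1 and MYC and to coactivators of the PGC-1 family.

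The labels were first checked against marker genes, and the markers differed between the groups. In bulk RNA, fewer cells of a type and less RNA per cell cannot be told apart. The summed linear signal of 12 B cell precursor markers was 14600 to 34300 in Pax5+/- leukemic samples against 48500 to 52700 in Pax5+/- preleukemic samples, and 9160 to 24800 in WT leukemic samples against 44600 to 57200 in WT preleukemic samples. The sum of 5 megakaryocyte markers was 2260 to 14700 in Pax5+/- leukemic samples against 418 to 485 in Pax5+/- preleukemic samples, and 7800 to 11100 in WT leukemic samples against 448 to 488 in WT preleukemic samples. The sum of 12 neutrophil markers was 1220 to 29100 in Pax5+/- leukemic samples against 998 to 1940 in Pax5+/- preleukemic samples, where Prtn3, Ctsg and Mmp8 lay below the array median in every sample. In WT mice that sum was 11300 to 20200 in leukemic samples against 1310 to 27900 in preleukemic samples, with the highest value in preleukemic sample 20. Monocyte and macrophage markers (9 genes) summed to 1820 to 11200 in Pax5+/- leukemic against 792 to 1080 in Pax5+/- preleukemic samples, and to 4470 to 7210 in WT leukemic against 942 to 2770 in WT preleukemic samples. Erythroid markers (5 genes) summed to 331 to 538 in Pax5+/- leukemic against 510 to 1570 in Pax5+/- preleukemic samples, and to 473 to 6060 in WT leukemic against 610 to 4350 in WT preleukemic samples. Of the markers measured in Pax5+/- mice, 8 of 12 B cell precursor markers fell in leukemic cells, and 5 of 5 megakaryocyte, 10 of 12 neutrophil, 8 of 9 monocyte and macrophage 8 of 10 stromal and endothelial, 2 of 6 T cell and 1 of 5 NK cell markers rose, while no erythroid marker rose and 1 of 5 fell. In WT mice 10 of the 12 B cell precursor markers fell, and 4 of 5 megakaryocyte, 1 of 12 neutrophil, 5 of 9 monocyte and macrophage, 7 of 10 stromal and endothelial and 3 of 5 erythroid markers rose, with no T cell or NK cell marker called. Of all genes tested 28% rose and 36.5% fell in Pax5+/- leukemic cells, and 17.9% rose and 19.3% fell in WT leukemic cells. Between the leukemic groups 3 of the 5 erythroid markers were lower in Pax5+/- than in WT samples, where 0.341% of all genes were called in either direction. The part of these other cell types in the respiratory chain results was not tested.

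The preleukemic Pax5+/- samples did not form 1 even group for these genes. Their titles carry the numbers 11 to 13 and 21 to 24, and the median respiratory chain gene had log2 values of 9.54, 9.52 and 9.46 in samples 11 to 13 and of 9.22, 9.32, 9.06 and 9.22 in samples 21 to 24. For 31 of the 83 genes (37.3%) all of samples 11 to 13 lay above all of samples 21 to 24, and for none did they all lie below. Over all genes tested these shares were 5.37% and 5.28%. The labels give no batch, the cause was not tested, and stage results are therefore given with either run of numbers left out, a choice made after seeing the data. The level of Xist, read here as a sign of sex, was low in samples 11 to 13 (6.06, 5.55 and 5.23) and in sample 21 (5.27). It was high in samples 22 to 24 (12.03, 11.92 and 12.15), so the runs also differed largely in inferred sex. The part of sex in the difference between the runs was not tested. Xist was high in 3 of 7 Pax5+/- preleukemic and 5 of 10 Pax5+/- leukemic samples.

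Leukemic cells of Pax5+/- mice had more RNA of many respiratory chain genes than preleukemic cells of Pax5+/- mice. Of the 83 genes 38 rose (45.8%), where 28% of all genes tested rose, and 10 fell (12%), where 36.5% of all genes fell (limma, all 23 arrays, adjusted p below 0.05 by the Benjamini-Hochberg method over all genes tested). The median log2 difference was 0.17 for the 83 genes and -0.05 for all genes. The groups did not overlap for 10 higher genes (11.7% of all genes were higher in this way) and 2 lower ones (10.8% of all genes). Log2 differences ran from -0.71 for the assembly factor Ndufaf3 to 1.04 for Atp5g1, a gene for the c ring of ATP synthase. Without samples 21 to 24, 19 genes rose (22.9%, against 20.2% of all genes), 9 fell (10.8%, against 22.7%), and the median difference was 0.02. Without samples 11 to 13, 46 genes rose (55.4%, against 24.8%), 7 fell (8.43%, against 33.3%), and the median difference was 0.27. The rise of the gene set as a whole thus depended on which preleukemic samples were used. In all 3 settings 19 genes rose (22.9%, against 19% of all genes) and 5 fell (6.02%, against 20%).

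In WT mice more respiratory chain genes also rose than fell. In WT leukemic against WT preleukemic cells 36 of the 83 genes rose (43.4%), where 17.9% of all genes rose, and 3 fell (3.61%), where 19.3% of all genes fell (limma, adjusted p below 0.05). The median log2 difference was 0.33 for the 83 genes and -0.06 for all genes. The 3 that fell were Cox6a2, Cox7a2l and Ndufaf3. All WT leukemic samples lay above all WT preleukemic samples for 40 of the 83 genes (21.1% of all genes did) and below them for 5 (23.3% of all genes did). Over fits that left out 1 sample each, the count of rises ran from 23 without leukemic sample 14 (27.7%, against 13.6% of all genes) to 42 without leukemic sample 17 (50.6%, against 16.6%). With samples 15, 17 and 20 left out together, a choice made after seeing the data, 31 rose and 2 fell (14.4% and 17% of all genes). That fit sets leukemic sample 14 alone against preleukemic samples 18 and 19, and assumes that the lone sample varies like the other groups. All 3 WT leukemic samples and none of the 3 WT preleukemic samples had a high Xist level, so sex and stage cannot be told apart in WT mice. With Xist as a covariate 44 genes rose (15.7% of all genes did) and 2 fell (15% of all genes did). That fit cannot separate sex from stage in WT mice. Xist hardly varied within each WT group, so its slope came almost wholly from the Pax5+/- samples.

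The groups share no samples between these genotype comparisons. Of the 83 genes 29 rose in both (34.9%, against 16.3% of all genes). They were 76.3% of those that rose in Pax5+/- and 80.6% of those that rose in WT mice. Over all genes tested the latter shares were 58% and 90.9%. 2 genes fell in both (Ndufaf3 and Cox7a2l), none was called in opposite directions, and 27 were called in neither. For these counts the shares over all genes were not counted. Of the 83 log2 differences 72 (86.7%) had the same sign in both genotypes, close to the 87.2% of all genes tested.

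**Figure D1:**
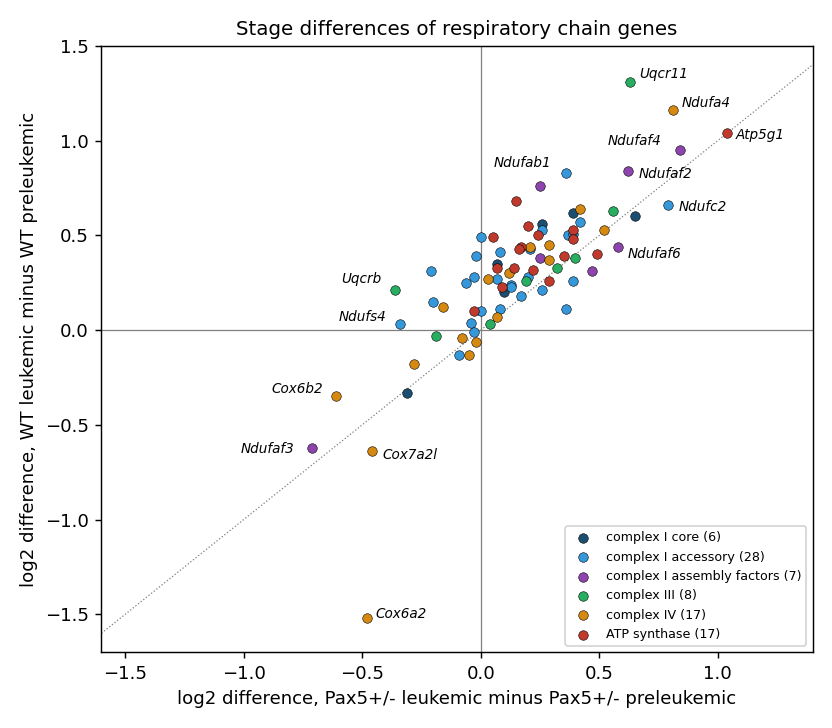
Each point is 1 of the 83 genes, by its log2 difference between leukemic and preleukemic cells in Pax5+/- mice (horizontal axis) and in WT mice (vertical axis), coloured by role, with the dotted line where both are equal. Most points lie above 0 on both axes (Atp5g1 at 1.04 and 1.04), Ndufaf3 and Cox7a2l lie low in both, and Cox6a2 lies lowest in WT mice at -1.52.

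The level of the median gene in each sample shows the same pattern with its overlap. It was 9.38, 9.57 and 9.84 (lowest, median and highest of 10) in Pax5+/- leukemic samples against 9.06, 9.32 and 9.54 (of 7) in Pax5+/- preleukemic samples. In WT mice it was 9.72, 9.83 and 9.5 in leukemic samples 14, 15 and 17 against 9.31, 9.19 and 9.46 in preleukemic samples 18, 19 and 20. The Pax5+/- groups overlapped, because samples 11 to 13 reached into the leukemic range, and the WT groups did not. The median of all tested genes also differed by stage on these arrays, at 7.3 ± 0.01 in Pax5+/- leukemic (SD, n = 10) and 7.1 ± 0.03 in Pax5+/- preleukemic samples (SD, n = 7), so that the median respiratory chain gene stood 2.29 ± 0.14 above it in leukemic and 2.23 ± 0.17 above it in preleukemic samples. In WT mice it stood 2.38 ± 0.17 above the median of all genes in leukemic and 2.16 ± 0.1 above it in preleukemic samples (SD, n = 3 each).

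**Figure D2:**
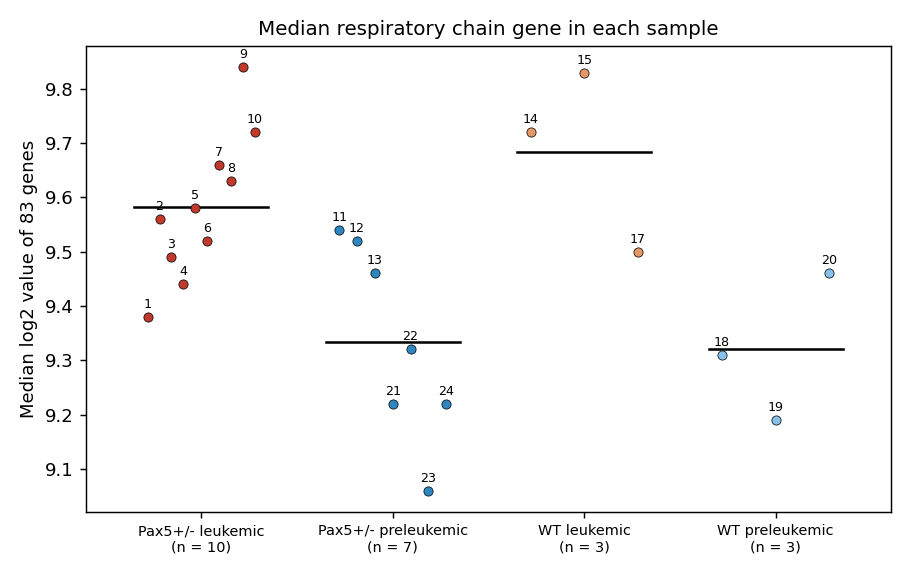
Points give the median log2 value of the 83 genes in each sample, labelled with the sample number, and lines give group means. Pax5+/- leukemic samples run from 9.38 to 9.84, and preleukemic samples 11 to 13 (9.46 to 9.54) lie inside that range while samples 21 to 24 (9.06 to 9.32) lie below it.

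Complex I takes electrons from NADH. Of its 6 core subunits, which hold the redox centres, Ndufv1, Ndufv2 and Ndufs7 rose in Pax5+/- leukemic cells and Ndufs8 fell. These rises and this fall were 50% and 16.7% of the 6, against 28% and 36.5% of all genes. Ndufv1 carries the flavin where NADH is oxidised. Its log2 values were 9.52, 9.84 and 10.2 (lowest, median and highest) in Pax5+/- leukemic samples against 8.81, 9.26 and 9.32 in Pax5+/- preleukemic samples, and 10.1, 9.87 and 9.58 in WT leukemic samples 14, 15 and 17 against 9.1, 9.23 and 9.41 in WT preleukemic samples 18, 19 and 20. Every leukemic sample lay above every preleukemic sample of its genotype. Ndufv1 differed by 0.65 ± 0.1 (SE) in Pax5+/- (limma, adjusted p = 1.27e-05) and 0.6 ± 0.17 in WT mice (adjusted p = 0.00773, and 0.053 without sample 14).

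Ndufv2 and Ndufs7, which carry iron-sulfur clusters before and at the end of the electron path inside complex I, rose in both genotypes. Ndufv2 differed by 0.39 in Pax5+/- (limma, adjusted p = 0.000411) and by 0.62 in WT mice (adjusted p = 0.00164), and its Pax5+/- difference was 0.19 without samples 21 to 24 (adjusted p = 0.11). Ndufs7 differed by 0.26 and 0.56 (adjusted p = 0.00187 in Pax5+/- and 0.000531 in WT mice). Ndufs8, another iron-sulfur subunit, differed by -0.31 in Pax5+/- mice (adjusted p = 0.00278, and 0.0637 without samples 21 to 24). In WT mice Ndufs8 differed by -0.33, and all 3 WT leukemic samples lay below the WT preleukemic samples without passing the test (adjusted p = 0.0626).

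Accessory subunits surround the core of complex I. Of 28 tested 11 rose and 2 fell in Pax5+/- leukemic cells (39.3% and 7.14%, against 28% and 36.5% of all genes). In WT leukemic cells 8 rose and none fell (28.6% rose, against 17.9% of all genes, and 19.3% of all genes fell). Without samples 21 to 24 the rises in Pax5+/- mice numbered 5 of 28, where 20.2% of all genes rose. In WT mice they numbered 4 or 5 without sample 14, 15 or 18 (13.6%, 14.4% and 12.1% of all genes). Ndufc2, a subunit of the membrane arm, had log2 values of 12.12, 12.28 and 12.5 (lowest, median and highest) in Pax5+/- leukemic samples against 10.89, 11.49 and 11.91 in Pax5+/- preleukemic samples. The groups did not overlap, and samples 11 to 13 (11.91, 11.82 and 11.84) were the highest of the preleukemic samples. Ndufc2 differed by 0.79 ± 0.12 (SE) in Pax5+/- mice (limma, adjusted p = 1.11e-05) and 0.66 ± 0.2 in WT mice (adjusted p = 0.0132, and 0.0532 to 0.0625 without sample 14, 15 or 18).

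Ndufb9, a small subunit of the membrane arm, differed by 0.42 in Pax5+/- (limma, adjusted p = 0.000251) and by 0.57 in WT mice (adjusted p = 0.00353). Ndufa9, which lies where the arms of the enzyme meet, differed by 0.39 (adjusted p = 0.00645) and 0.51 (adjusted p = 0.0458) in Pax5+/- and WT mice. It did not pass in Pax5+/- mice without samples 21 to 24 (adjusted p = 0.227), nor in WT mice without sample 14, 15, 18 or 19 (adjusted p = 0.113 to 0.212). Ndufab1, the mitochondrial acyl carrier protein, differed by 0.83 in WT mice (adjusted p = 0.000282) and by 0.36 in Pax5+/- mice (adjusted p = 0.00174, and 0.182 without samples 21 to 24).

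Ndufs4, an accessory subunit that stabilises the NADH-oxidising arm in mice, and the membrane subunit Ndufa11 fell in Pax5+/- leukemic cells. Ndufs4 had log2 values of 10.69, 10.93 and 11.11 (lowest, median and highest) in Pax5+/- leukemic samples against 11.03, 11.2 and 11.54 in Pax5+/- preleukemic samples, with a difference of -0.34 ± 0.08 (SE; limma, adjusted p = 0.000574). In WT mice it differed by 0.03 ± 0.13 (adjusted p = 0.848). The stage difference of Ndufs4 kept its call with either run of preleukemic samples left out. Ndufa11 differed by -0.2 in Pax5+/- mice (adjusted p = 0.012, and 0.139 without samples 11 to 13) and by 0.15 in WT mice (adjusted p = 0.285).

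The assembly factors of complex I had the largest median difference of the role groups in Pax5+/- mice, 0.47. In WT mice their median was 0.44, against 0.46 for the complex I core and 0.43 for ATP synthase. In each genotype 5 of 7 rose and 1 fell (71.4% and 14.3%), with 3 rises in WT mice without sample 14 or 18. Of all genes 28% rose and 36.5% fell in Pax5+/- mice. In WT mice 17.9% rose and 19.3% fell, and 13.6% and 12.1% rose without sample 14 or 18. Ndufaf3 and Ndufaf4 act together on an early assembly intermediate, and their RNAs went in opposite directions. Ndufaf4 had log2 values of 6.49, 7.08 and 7.55 (lowest, median and highest) in Pax5+/- leukemic samples against 6, 6.27 and 6.54 in Pax5+/- preleukemic samples, and 7.71, 7.11 and 6.86 in WT leukemic samples 14, 15 and 17 against 6.35, 6.15 and 6.33 in WT preleukemic samples 18, 19 and 20. Leukemic sample 3, with 6.49, was the only Pax5+/- leukemic sample inside the preleukemic range. Ndufaf4 differed by 0.84 ± 0.14 (SE) in Pax5+/- (limma, adjusted p = 4.32e-05) and 0.95 ± 0.24 in WT mice (adjusted p = 0.00401).

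Ndufaf3 had log2 values of 9.05, 9.32 and 9.61 (lowest, median and highest) in Pax5+/- leukemic samples against 9.81, 9.99 and 10.31 in Pax5+/- preleukemic samples, and 9.53, 9.43 and 9.48 in WT leukemic samples 14, 15 and 17 against 10.05, 10.24 and 10.01 in WT preleukemic samples 18, 19 and 20. All leukemic samples of both genotypes lay below all preleukemic samples. Ndufaf3 differed by -0.71 ± 0.07 (SE) in Pax5+/- (limma, adjusted p = 6.3e-08) and -0.62 ± 0.12 in WT mice (adjusted p = 0.000585).

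Of the other assembly factors, Ndufaf2, a chaperone of late assembly, differed by 0.62 in Pax5+/- (limma, adjusted p = 0.000117) and 0.84 in WT mice (adjusted p = 0.0021). Ndufaf7, a methyltransferase that modifies a core subunit, differed by 0.47 and 0.31 (adjusted p = 2.01e-06 in Pax5+/- and 0.0244 in WT mice). Ndufaf6 differed by 0.58 in Pax5+/- mice (adjusted p = 0.000989) and by 0.44 in WT mice (adjusted p = 0.132), where leukemic sample 17 had 5.59, below all WT preleukemic samples, against 6.72 and 6.35 in samples 14 and 15. Without sample 17 the WT difference of Ndufaf6 was 0.75 (adjusted p = 0.00964).

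Complex III passes electrons from ubiquinol to cytochrome c. In Pax5+/- leukemic cells 5 of its 8 subunits with Uqcr names rose and 2 fell (62.5% and 25%, against 28% and 36.5% of all genes). In WT leukemic cells 3 rose and none fell (37.5% rose, against 17.9% of all genes, and 19.3% of all genes fell). The WT rises numbered 2 without sample 14 and 5 without sample 17 (13.6% and 16.6% of all genes). Without samples 21 to 24, 3 rose in Pax5+/- mice, where 20.2% of all genes rose. Uqcr11, a small membrane subunit, had log2 values of 9.18, 9.3 and 9.45 (lowest, median and highest) in Pax5+/- leukemic samples against 8.44, 8.72 and 9.08 in Pax5+/- preleukemic samples, and 9.42, 9.58 and 9.5 in WT leukemic samples 14, 15 and 17 against 8.16, 7.86 and 8.55 in WT preleukemic samples 18, 19 and 20. Leukemic samples were close together and above every preleukemic sample. The log2 difference was 0.63 ± 0.09 (SE) in Pax5+/- (limma, adjusted p = 5.18e-06) and 1.31 ± 0.15 in WT mice (adjusted p = 1.84e-06), the smallest p of the 83 genes in WT mice.

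Uqcr10, another small subunit, differed by 0.56 in Pax5+/- (limma, adjusted p = 4.22e-05) and by 0.63 in WT mice (adjusted p = 0.00442), and the core protein Uqcrc2 by 0.32 and 0.33 (adjusted p = 9.47e-05 in Pax5+/- and 0.0111 in WT mice). Uqcrq rose by 0.4 in Pax5+/- mice (adjusted p = 0.000956, and 0.0855 without samples 21 to 24). Uqcrb, which lies near a ubiquinone site, had log2 values of 10.8, 11.02 and 11.36 (lowest, median and highest) in Pax5+/- leukemic samples against 11.16, 11.37 and 11.65 in Pax5+/- preleukemic samples, a difference of -0.36 ± 0.08 (SE; adjusted p = 0.00101). In WT mice it differed by 0.21 ± 0.14 (adjusted p = 0.246), and its probe sets disagreed in sign there. Uqcrh, the hinge protein beside cytochrome c1, differed by -0.19 in Pax5+/- mice (adjusted p = 0.0437), a call lost when any of 9 single samples was left out (adjusted p up to 0.121, without sample 11).

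Complex IV, cytochrome c oxidase, reduces oxygen, and several of its subunits exist as isoforms made in particular tissues. Of 17 genes tested 6 rose and 4 fell in Pax5+/- leukemic cells (35.3% and 23.5%, against 28% and 36.5% of all genes). In WT leukemic cells 5 rose and 2 fell (29.4% and 11.8%, against 17.9% and 19.3% of all genes). Without samples 21 to 24 only Cox7b rose in Pax5+/- mice, where 20.2% of all genes rose. In WT mice the rises numbered from 2, without sample 19, to 7, without sample 17 (12.9% and 16.6% of all genes). Ndufa4 followed the median respiratory chain gene most closely of the 83 genes over the 23 arrays (Pearson's r = 0.94, given as a description, since the arrays share groups and scaling). It had log2 values of 9.06, 9.63 and 10.56 (lowest, median and highest) in Pax5+/- leukemic samples against 8.34, 8.9 and 9.49 in Pax5+/- preleukemic samples, and 10.15, 10.18 and 9.71 in WT leukemic samples 14, 15 and 17 against 8.8, 8.51 and 9.25 in WT preleukemic samples 18, 19 and 20. Preleukemic samples 11 to 13 had 9.33, 9.49 and 9.33, inside the leukemic range. The log2 difference was 0.81 ± 0.2 (SE) in Pax5+/- mice (limma, adjusted p = 0.00129), and 0.39 without samples 21 to 24 (adjusted p = 0.197). In WT mice it was 1.16 ± 0.33 (adjusted p = 0.00868, and 0.0528 without sample 19).

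Cox5a and Cox5b, subunits without tissue isoforms in mice, differed by 0.52 and 0.42 in Pax5+/- mice (limma, adjusted p = 0.000425 and 0.00576) and by 0.53 and 0.64 in WT mice (adjusted p = 0.0281 and 0.0188). Without samples 21 to 24 neither passed in Pax5+/- mice (adjusted p = 0.0739 for Cox5a and 0.328 for Cox5b). In WT mice Cox5a did not pass without sample 14, 15, 18 or 19 (adjusted p = 0.0699 to 0.129), and Cox5b did not pass without sample 14, 15 or 19 (adjusted p = 0.0599 to 0.0823).

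Cox7a2l, which is known for joining complexes III and IV into supercomplexes in mice, fell in both genotypes. Its log2 values were 8.42, 8.63 and 9.2 (lowest, median and highest) in Pax5+/- leukemic samples against 8.95, 9.09 and 9.5 in Pax5+/- preleukemic samples, and 8.58, 8.52 and 8.55 in WT leukemic samples 14, 15 and 17 against 9.31, 9.1 and 9.15 in WT preleukemic samples 18, 19 and 20. Leukemic sample 9, with 9.2, was the only Pax5+/- leukemic sample inside the preleukemic range. The log2 difference was -0.46 ± 0.1 (SE) in Pax5+/- (limma, adjusted p = 0.000383) and -0.64 ± 0.16 in WT mice (adjusted p = 0.00452, and 0.06 with Xist as a covariate). Of its relatives, Cox7a2 differed by 0.03 and 0.27 and the muscle isoform Cox7a1 by -0.05 and -0.13 in Pax5+/- and WT mice, and none of these passed.

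Cox6b2, an isoform known from testis, had log2 values of 6.02, 6.22 and 6.51 (lowest, median and highest) in Pax5+/- leukemic samples against 6.78, 6.82 and 6.99 in Pax5+/- preleukemic samples. The groups did not overlap, and the difference was -0.61 ± 0.09 (SE; limma, adjusted p = 7.14e-06). In WT mice Cox6b2 had 5.99, 6.54 and 6.91 in leukemic samples 14, 15 and 17 against 6.8, 6.9 and 6.78 in preleukemic samples 18, 19 and 20, a difference of -0.35 ± 0.15 (adjusted p = 0.0715) that passed without sample 17 (-0.56, adjusted p = 0.00354). The ubiquitous Cox6b1 differed by -0.16 in Pax5+/- mice (adjusted p = 0.0398), a call lost when any of 9 single samples was left out (adjusted p up to 0.104, without sample 11), and by 0.12 in WT mice (adjusted p = 0.393).

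Cox6a2, the isoform of heart and skeletal muscle, had the largest SD of the 83 genes in Pax5+/- leukemic samples (0.62) and in WT preleukemic samples (0.79). It had log2 values of 7.74, 7.31 and 7.99 in WT leukemic samples 14, 15 and 17 against 8.56, 8.95 and 10.08 in WT preleukemic samples 18, 19 and 20, a difference of -1.52 ± 0.41 (SE; limma, adjusted p = 0.00663). The highest value, 10.08, was that of sample 20. Of the WT preleukemic samples, sample 20 also had the highest sums of neutrophil, monocyte and macrophage, erythroid, T cell and NK cell markers. Pax5+/- leukemic sample 6, with the highest neutrophil marker sum of its group (29100), had a Cox6a2 value of 7.22. Sample 2, with the highest monocyte and macrophage, T cell and NK cell sums of that group, had 8.38. Sample 3, with its highest erythroid sum, had 7.88. The part of these cell types in the Cox6a2 values was not tested. In Pax5+/- mice Cox6a2 had 7.17, 7.97 and 9.1 (lowest, median and highest) in leukemic samples against 8.18, 8.43 and 8.83 in preleukemic samples, a difference of -0.48 ± 0.25 (adjusted p = 0.0895, and 0.0258 without leukemic sample 1, which had 9.1). The liver-type isoform Cox6a1, which most tissues express, differed by 0.12 and 0.3 in Pax5+/- and WT mice (adjusted p = 0.176 and 0.0758).

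Of the remaining isoform sets, Cox4i1 rose by 0.29 in Pax5+/- mice (limma, adjusted p = 0.00686, and 0.173 without samples 21 to 24), while its lung isoform Cox4i2 differed by -0.08 (adjusted p = 0.231). In WT mice Cox4i1 differed by 0.37 (adjusted p = 0.051) and Cox4i2 by -0.04. Cox8c, a testis isoform with low signal, differed by -0.28 in Pax5+/- mice (adjusted p = 0.000828, and 0.0822 without samples 21 to 24), and the common isoform Cox8a by 0.07 (adjusted p = 0.156). Cox7b rose by 0.29 in Pax5+/- and 0.45 in WT mice (adjusted p = 5.74e-05 and 0.00042). Its relative Cox7b2 stayed between 4.43 and 4.6 on all 23 arrays and was not tested. Ndufa4l2, the relative of Ndufa4 known for its induction in hypoxia, differed by -0.02 in Pax5+/- and -0.06 in WT mice and passed in neither.

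**Figure D3:**
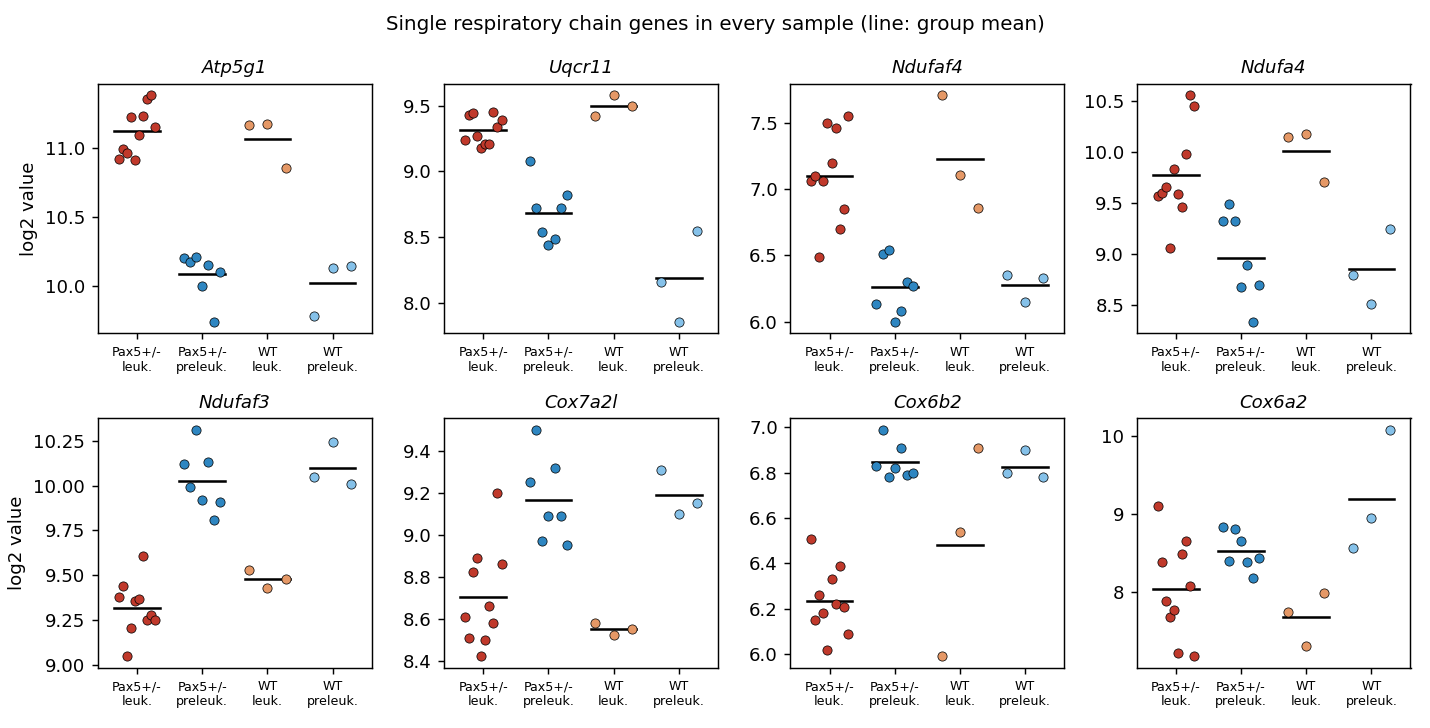
Points give the log2 value of 8 single genes in every sample and lines give group means, with the groups in the order Pax5+/- leukemic, Pax5+/- preleukemic, WT leukemic, WT preleukemic. The upper row shows genes that rose (Atp5g1 means 11.12 and 10.08 in Pax5+/- leukemic and preleukemic samples), and the lower row shows genes that fell in at least 1 genotype (Ndufaf3 means 9.32 and 10.03).

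ATP synthase was the role group with no fall in either genotype. Of its 17 genes 8 rose in Pax5+/- leukemic cells (47.1%, against 28% of all genes) and 11 in WT leukemic cells (64.7%, against 17.9%). The median differences were 0.2 and 0.43. Without samples 21 to 24 the rises in Pax5+/- mice numbered 4, and without samples 11 to 13 they numbered 12 (20.2% and 24.8% of all genes). Without sample 15 or 19 those in WT mice numbered 7 (14.4% and 12.9% of all genes). The catalytic subunit Atp5b had log2 values of 12.14, 12.27 and 12.42 (lowest, median and highest) in Pax5+/- leukemic samples against 11.87, 11.91 and 11.96 in Pax5+/- preleukemic samples, with no overlap. It differed by 0.35 ± 0.04 (SE) in Pax5+/- (limma, adjusted p = 1.14e-07) and by 0.39 ± 0.06 in WT mice (adjusted p = 1e-04). Atp5j, a subunit of the stalk, differed by 0.39 and 0.53 (adjusted p = 0.000238 in Pax5+/- and 0.00327 in WT mice). Atp5d, a subunit of the rotor, differed by 0.14 in Pax5+/- mice (adjusted p = 0.025), a call lost without samples 12 or 21 and with a sign that turned (-0.02) when the arrays were quantile normalized. In WT mice Atp5d differed by 0.33 (adjusted p = 0.00677).

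The c ring of ATP synthase is built from 1 mature protein that 3 genes encode, Atp5g1, Atp5g2 and Atp5g3, which differ in their import sequences. Atp5g1 had log2 values of 10.91, 11.12 and 11.38 (lowest, median and highest) in Pax5+/- leukemic samples against 9.74, 10.15 and 10.21 in Pax5+/- preleukemic samples, and 11.16, 11.17 and 10.85 in WT leukemic samples 14, 15 and 17 against 9.78, 10.13 and 10.14 in WT preleukemic samples 18, 19 and 20. All leukemic samples of both genotypes lay above all preleukemic samples. The difference was 1.04 ± 0.09 (SE), a 2.05-fold rise, in Pax5+/- (limma, adjusted p = 1.89e-09) and 1.04 ± 0.14, a 2.06-fold rise, in WT mice (adjusted p = 1.34e-05).

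Atp5g2 had log2 values of 12.22, 12.41 and 12.51 (lowest, median and highest) in Pax5+/- leukemic samples against 11.77, 11.86 and 12.08 in Pax5+/- preleukemic samples, also without overlap. It differed by 0.49 ± 0.05 (SE) in Pax5+/- (limma, adjusted p = 5.52e-08) and by 0.4 ± 0.08 in WT mice (adjusted p = 0.000985, and 0.051 after quantile normalization). Atp5g3 had 10.15, 10.99 and 11.57 in Pax5+/- leukemic samples against 10.59, 10.9 and 11.05 in Pax5+/- preleukemic samples, and the groups overlapped. Its difference was 0.07 ± 0.14 in Pax5+/- (adjusted p = 0.659) and 0.33 ± 0.23 in WT mice (adjusted p = 0.25). Whether the 3 genes differed from each other in their change was not tested.

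The promoters of the c ring genes are shown because the 3 genes encode the same mature protein, with the promoters of Uqcr11 and Ndufaf4 beside them as the most changed genes of complex III and of the assembly factors in Pax5+/- mice. Each runs from 250 bases before to 50 bases after the gene's start in RefSeq on GRCm38.p6, 5′ to 3′, and capitals mark letters that match a motif searched on both strands. The motifs were the NRF1 strings GCATGCGC and GCGCATGCG, which overlap each other, the YY1 string AAGATGGC, the ETS string CCGGAAGT bound by GABP, and the E-box CACGTG bound by MYC and other factors. The Atp5g1 window holds an E-box at bases 207 to 212, the Atp5g3 window an E-box at bases 13 to 18, and the Atp5g2 window both NRF1 strings at bases 209 to 218. The Uqcr11 window holds the ETS string and both NRF1 strings, and the Ndufaf4 window holds NRF1 strings at 2 places.
Atp5g1, chr11:96075582-96075881, minus strand: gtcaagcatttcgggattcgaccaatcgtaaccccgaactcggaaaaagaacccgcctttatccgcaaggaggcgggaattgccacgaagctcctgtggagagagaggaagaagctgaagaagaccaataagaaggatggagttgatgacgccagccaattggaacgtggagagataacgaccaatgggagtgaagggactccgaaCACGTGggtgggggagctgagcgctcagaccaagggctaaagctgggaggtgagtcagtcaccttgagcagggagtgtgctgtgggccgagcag
Atp5g2, chr15:102670998-102671297, minus strand: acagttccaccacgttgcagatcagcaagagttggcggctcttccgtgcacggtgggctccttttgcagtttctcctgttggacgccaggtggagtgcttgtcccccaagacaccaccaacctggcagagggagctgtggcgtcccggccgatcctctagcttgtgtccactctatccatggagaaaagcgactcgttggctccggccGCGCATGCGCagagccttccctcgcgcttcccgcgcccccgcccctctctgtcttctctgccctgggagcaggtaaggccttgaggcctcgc
Atp5g3, chr2:73911277-73911576, minus strand: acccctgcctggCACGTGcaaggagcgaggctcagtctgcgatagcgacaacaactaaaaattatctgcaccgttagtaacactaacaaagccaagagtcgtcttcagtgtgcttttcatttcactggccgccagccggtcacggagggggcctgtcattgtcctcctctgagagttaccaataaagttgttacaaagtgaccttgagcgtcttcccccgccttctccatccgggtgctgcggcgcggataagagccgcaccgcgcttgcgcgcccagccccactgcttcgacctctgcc
Uqcr11, chr10:80406772-80407071, minus strand: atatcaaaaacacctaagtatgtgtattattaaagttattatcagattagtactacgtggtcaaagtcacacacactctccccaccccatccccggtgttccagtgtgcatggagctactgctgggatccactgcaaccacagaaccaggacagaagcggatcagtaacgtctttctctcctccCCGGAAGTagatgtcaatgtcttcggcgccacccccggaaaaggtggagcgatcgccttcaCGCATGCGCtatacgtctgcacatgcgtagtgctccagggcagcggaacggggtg
Ndufaf4, chr4:24897833-24898132, plus strand: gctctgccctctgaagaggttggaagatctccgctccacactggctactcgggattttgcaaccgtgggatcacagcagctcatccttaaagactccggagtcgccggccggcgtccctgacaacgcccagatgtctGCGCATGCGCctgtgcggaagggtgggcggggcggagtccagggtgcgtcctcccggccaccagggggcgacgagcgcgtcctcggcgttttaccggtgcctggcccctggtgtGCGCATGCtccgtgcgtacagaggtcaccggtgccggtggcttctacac

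Promoters were found for 68 of the 83 genes. The NRF1 strings were held by 11 (GCATGCGC, 16.2%) and 10 (GCGCATGCG, 14.7%) of the 68, against 5.01% and 3.4% of 12267 tested genes with a promoter. The YY1 string was held by 10 (14.7%, against 4.36%), the ETS string by 5 (7.35%, against 7.32%) and the E-box by 6 (8.82%, against 10.7%). GCATGCGC was held by 4 of the 26 promoters of genes that rose in both genotypes (15.4%) and by 5 of the 22 promoters of genes called in neither (22.7%), and the E-box by 3 of 26 (11.5%) and 2 of 22 (9.09%). A match describes these letters only, and says nothing of what binds there.

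Genes with related roles that the name patterns leave out were also measured. Of the 4 subunits of complex II, 2 rose in Pax5+/- (50%, against 28% of all genes) and 3 in WT leukemic cells (75%, against 17.9%), and none fell. Sdha, the flavoprotein, differed by 0.4 in Pax5+/- mice (limma, adjusted p = 0.000123) and by 0.32 in WT mice (adjusted p = 0.0494). Cycs, cytochrome c, differed by 0.54 and 0.79 (adjusted p = 0.000203 in Pax5+/- and 0.00179 in WT mice), while the complex III subunit Cyc1 passed in neither. Of the subunits encoded by mitochondrial DNA, COX2 and ND3 were measured. COX2 fell by 0.2 on the log2 scale in Pax5+/- mice (adjusted p = 0.00333) and differed by -0.09 in WT mice (adjusted p = 0.47), and ND3 passed in neither. Of 36 assembly factors outside the name patterns 14 rose and 7 fell in Pax5+/- mice (38.9% and 19.4%, against 28% and 36.5% of all genes), and 11 rose and 4 fell in WT mice (30.6% and 11.1%, against 17.9% and 19.3%). Among them Cox18, which inserts a complex IV subunit into the membrane, differed by 0.88 and 0.95 (adjusted p = 5.99e-07 in Pax5+/- and 0.00035 in WT mice).

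Of 17 regulators of mitochondrial gene expression, 4 rose and 7 fell in Pax5+/- leukemic cells (23.5% and 41.2%, against 28% and 36.5% of all genes). In WT leukemic cells 3 rose and 5 fell (17.6% and 29.4%, against 17.9% and 19.3% of all genes), so the shares of rises lay near or below those of all genes. Ppargc1a, a coactivator known for driving mitochondrial biogenesis, had log2 values of 4.65, 4.81 and 5.01 (lowest, median and highest) in Pax5+/- leukemic samples against 6.03, 6.29 and 6.5 in Pax5+/- preleukemic samples. It differed by -1.42 ± 0.08 (SE) in Pax5+/- (limma, adjusted p = 4.48e-12) and by -1.4 ± 0.13 in WT mice (adjusted p = 1.08e-07). In leukemic samples of both genotypes Ppargc1a lay below every array median (6.06 to 6.2), a low signal that limits how well the size of its fall is known. Its relative Pprc1, a coactivator that responds to growth signals, had 7.55, 8.57 and 9.21 in Pax5+/- leukemic samples against 7, 7.22 and 7.51 in Pax5+/- preleukemic samples, and differed by 1.34 and 1.31 (adjusted p = 7.11e-07 in Pax5+/- and 0.00101 in WT mice). Myc had 9.07, 11.43 and 11.95 in Pax5+/- leukemic samples against 7.19, 7.67 and 8.03 in Pax5+/- preleukemic samples, a difference of 3.62 (adjusted p = 1.31e-08), and differed by 2.8 in WT mice (adjusted p = 0.000659).

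Leukemic sample 3 had the lowest Myc (9.07) and Pprc1 (7.55) of the Pax5+/- leukemic samples. Its median respiratory chain gene (9.49) lay above those of samples 1 and 4 and below those of the others. Its median complex I assembly factor (6.62) was the lowest of that group, and its medians of the other role groups were not. WT preleukemic sample 20 had the highest Myc of the 10 preleukemic samples (9.35). Its median respiratory chain gene (9.46) was the highest of the WT preleukemic samples only. Pax5+/- preleukemic samples 11 to 13 had medians of 9.54, 9.52 and 9.46, with Myc at 7.36, 8.03 and 7.19. The part of Myc and Pprc1 in the respiratory chain levels was not tested. Nrf1, the factor named above, differed by -0.53 in Pax5+/- (limma, adjusted p = 1.86e-06) and by -0.3 in WT mice (adjusted p = 0.0479), and the GABP subunit Gabpb1 by -0.49 and -0.61 (adjusted p = 3.42e-05 in Pax5+/- and 0.00169 in WT mice). Tfam, which packages and transcribes mitochondrial DNA, differed by 0.16 in Pax5+/- and 0.04 in WT mice and passed in neither.

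**Figure D4:**
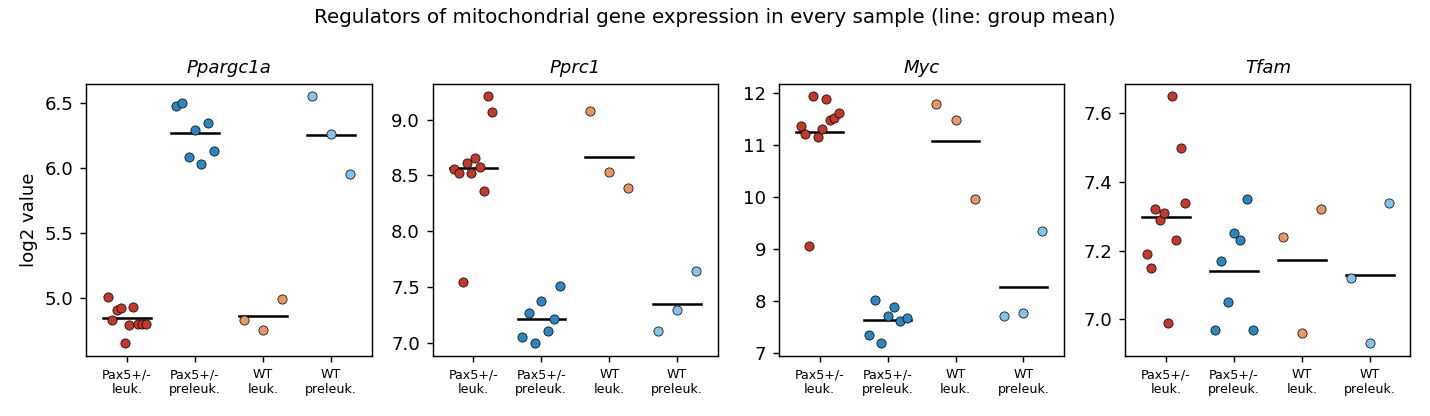
Points give the log2 value of 4 regulators in every sample and lines give group means. Ppargc1a lies near 4.84 in Pax5+/- leukemic and 6.26 in Pax5+/- preleukemic samples, Pprc1 and Myc lie higher in leukemic samples, and Tfam overlaps between the groups.

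Between Pax5+/- and WT preleukemic cells none of the 83 passed, where 0.624% of all genes did (limma, adjusted p below 0.05). With only these groups fitted Ndufa11 passed (adjusted p = 0.0488), and with a random block for the letter in each mouse number (correlation within letters -0.044) Atp5md, Ndufa11 and Uqcr11 passed (adjusted p = 0.0339, 0.0424 and 0.0424). With all groups fitted and no block, the smallest adjusted p was that of Atp5md, a small membrane subunit of ATP synthase, 0.0699. Its values were 11.39, 11.53 and 12.09 (lowest, median and highest) in Pax5+/- preleukemic samples against 11.08, 10.94 and 11.26 in WT preleukemic samples 18, 19 and 20, with no overlap and a difference of 0.5 ± 0.12 (SE). Ndufa11 differed by 0.36 (adjusted p = 0.0766), again without overlap, and Uqcr11 by 0.5 (adjusted p = 0.0812, and 0.00966 without WT sample 20). Ndufa2, a complex I accessory subunit, differed by 0.56 (adjusted p = 0.285), with Pax5+/- samples 11 to 13 at 9.43, 9.32 and 9.3 and sample 24 at 8.41, and by 0.85 without samples 21 to 24 (adjusted p = 0.0357). Uqcrc1 differed by 0.28 (adjusted p = 0.287). Xist was high in 3 of the 7 Pax5+/- and 0 of the 3 WT preleukemic samples, so inferred sex was not balanced in this comparison.

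Between Pax5+/- and WT leukemic cells none of the 83 passed either, where 0.341% of all genes did (limma, adjusted p below 0.05). The smallest adjusted p was that of Ndufa3, 0.409, with a difference of -0.32 ± 0.11 (SE). Cox6b2 differed by -0.24 (adjusted p = 0.873), and by -0.49 without WT sample 14, which had the lowest of the 3 WT values (adjusted p = 0.0136). Of the 83 differences 65 were negative, with a median of -0.06 against 0.01 for all genes. Without WT sample 14, 50 were negative (median -0.02), and without WT sample 17, 74 were (median -0.15). Xist was high in 5 of the 10 Pax5+/- and 3 of the 3 WT leukemic samples, so inferred sex was not balanced here either.

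The stage difference itself was compared between genotypes by an interaction term. None of the 83 genes passed, where 0.0965% of all genes did (limma, adjusted p below 0.05). Uqcr11 had the smallest p, with a stage difference smaller in Pax5+/- than in WT mice by 0.68 ± 0.18 (SE; interaction -0.68, adjusted p = 0.235, and 0.0251 without WT sample 20). Uqcrb followed (-0.56, adjusted p = 0.341), then Atp5md (-0.53, adjusted p = 0.429), Ndufa11 (-0.34, adjusted p = 0.54) and Ndufab1 (-0.47, adjusted p = 0.561). Of the 83 interactions 66 were negative, with a median of -0.13 against 0.01 for all genes. That median was -0.04 without samples 11 to 13 (53 negative), -0.25 without samples 21 to 24 (71 negative) and -0.21 without WT sample 17 (74 negative). The WT groups held 3 samples each, and a p that misses the threshold does not show that the genotypes act alike.

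The genes varied together over the arrays. Of the 83 genes 25 (30.1%) had a correlation above 0.8 with the median respiratory chain gene over the 23 arrays, against 2.73% of all genes, and 62 (74.7%) had one above 0.5, against 21.4%. These are descriptions over arrays that share groups, scaling and, for the 83 genes, the median itself. Of the 83 genes 9 had a negative correlation, which was lowest for Cox8c (r = -0.73), Cox6b2 (-0.62), Ndufaf3 (-0.54) and Ndufa4l2 (-0.54). The others were Ndufs8 (-0.41), Cox6a2 (-0.41), Cox7a2l (-0.4), Cox4i2 (-0.34) and Cox7a1 (-0.02). Outside the name patterns the closest were Psma5, a proteasome subunit (r = 0.94), Mrpl51, a mitochondrial ribosomal protein (0.94), and Slirp, a binder of mitochondrial RNA (0.93). Within groups the median SD of the 83 genes was 0.16 in Pax5+/- leukemic samples, 0.17 in Pax5+/- preleukemic samples, 0.16 in WT leukemic samples and 0.13 in WT preleukemic samples, where that of all genes was 0.17, 0.12, 0.13 and 0.15. The Pax5+/- preleukemic samples were thus more spread for these genes than for the array as a whole.

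**Figure D5:**
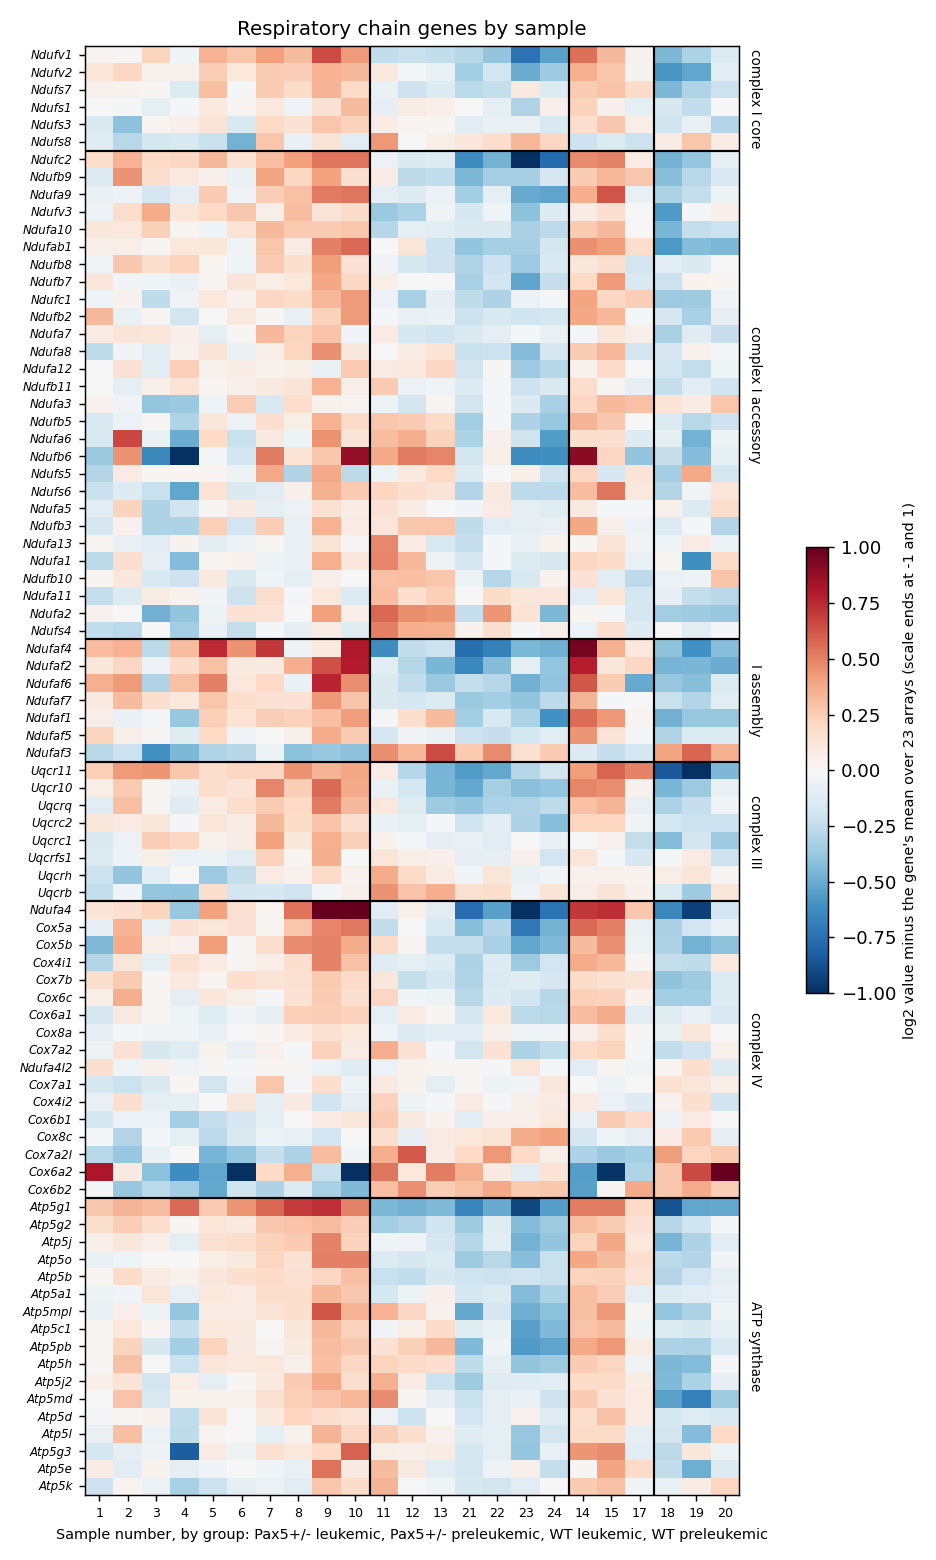
Rows are the 83 genes by role, columns the 23 samples by group, and colours the log2 value minus the gene's mean over the 23 arrays, red above and blue below. Red prevails in Pax5+/- leukemic samples 9 and 10 and WT leukemic samples 14 and 15, blue in Pax5+/- preleukemic samples 21 to 24, and the rows of Ndufaf3, Cox7a2l and Cox6b2 run the other way.

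The genes that kept their Pax5+/- stage call with all samples, without samples 11 to 13 and without samples 21 to 24 came from every role group. Of the 83 genes 22.9% rose in this way, near the 19% of all genes, and 6.02% fell, against 20% of all genes. The 19 that rose were Ndufv1, Ndufs7, Ndufc2, Ndufb9, Ndufb8, Ndufa10 and Ndufv3 of complex I, its assembly factors Ndufaf2, Ndufaf4, Ndufaf6 and Ndufaf7, Uqcr10, Uqcr11 and Uqcrc2 of complex III, Cox7b of complex IV, and Atp5b, Atp5g1, Atp5g2 and Atp5j of ATP synthase. In WT mice 16 of these rose, all but Ndufaf6, Ndufb8 and Ndufv3. The 5 that fell were Ndufs4, Ndufaf3, Uqcrb, Cox7a2l and Cox6b2, of which Ndufaf3 and Cox7a2l also fell in WT mice. A further 19 genes that rose with all samples lost the call without samples 21 to 24, among them Ndufa4, Cox5a, Cox5b, Cox4i1 and Ndufv2. For all genes, the matching shares of calls shared with WT mice and of calls lost were not counted.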

How the data were processed

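RNA of mouse bone marrow (23 samples) was labelled with biotin and hybridised to arrays of 1 colour. The authors deposited log2 signals of 28944 probe sets, from 3.65 to 14.2, with array medians of 6.06 to 6.2. The submitters' processing notes name Transcriptome Analysis Console, and how background was corrected and arrays were normalized is not given in the sources used here. Groups came from the sample titles, and a WT leukemia numbered 16 was not analysed here. Precision is limited by how many arrays each group has. The Pax5+/- samples carry a mouse number each. For the WT samples nothing in the labels states separate mice beyond the design text, so p-values measure the spread between these samples.

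Probe sets annotated with several symbols (1621) or with none (5534) were not used, and the probe set of highest mean stood for each of 19938 symbols. Genes above the 30th percentile on at least 3 arrays were tested, 15542 in all. Of the 83 respiratory chain genes 17 had several probe sets, and the sign of the WT stage difference disagreed between them for Uqcrb and Ndufa11. The model was fitted in limma 3.58.1 (R 4.3.3) to all 23 arrays with 1 mean per group and an intensity trend in eBayes. Tests were two-sided, p-values were adjusted by Benjamini and Hochberg over the 15542 genes, and the threshold was 0.05. Differences are first group minus second on the log2 scale, with standard errors. The fit was tested on simulated data. Marker sums add up 2 raised to the log2 value.

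The members, gene lists and tests were chosen with earlier results of these data known. Genes were named by role (the up to 3 largest rises and falls that passed per role group), as isoform pairs, by smallest p in the other comparisons, and by likeness to the median gene. Ndufa10, Ndufb8, Ndufv3, Ndufaf7, Uqcrc2, Sdha, Cycs, Cyc1, COX2, ND3, Cox18 and the regulators named were chosen after their values were seen. Promoter sequences are RefSeq's on GRCm38.p6, matched by symbol. Figures were drawn with matplotlib 3.10.9. Alternatives were no filter or one at the 50th percentile, other eBayes priors, quantile normalization, median centring, the mean of all probe sets, only the groups compared, a covariate for Xist, a random block by the letter that begins each mouse number, and samples left out.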

Additional observations from a re-analysis of the deposited data

Results flagged for a closer look

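Outlying values were sought in 100 checks, each of 1 gene or the median gene within the Pax5+/- leukemic or the Pax5+/- preleukemic samples. In these, 5 values stood apart from the rest of their group, and chance alone gives about 1 in 20 checks. The checks share arrays and are not independent. The WT groups, with 3 samples each, were too small to be checked. Atp5d in Pax5+/- leukemic sample 4 was 12.21, where the other 9 lay between 12.44 and 12.67. Cox5b in Pax5+/- leukemic sample 1 was 11.1, where the others lay between 11.55 and 12.04. Cox8b, which did not pass the filter, was 5.22 in Pax5+/- leukemic sample 4, where the others lay between 4.93 and 5.07. Atp5md in Pax5+/- preleukemic sample 11 was 12.09, where the others lay between 11.39 and 11.63, and without sample 11 its stage difference was 0.23 (limma, adjusted p = 0.00673), against 0.15 (adjusted p = 0.129) with it. Cox8b in Pax5+/- preleukemic sample 23 was 4.93, where the others lay between 5.04 and 5.12.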

How the results depend on the processing

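The count of rises in Pax5+/- leukemic against preleukemic cells (38) was 32 to 39 over the alternatives of filter, prior, scaling, probe set, samples fitted, covariate and block, 46 without samples 11 to 13 and 19 without samples 21 to 24. Leaving out 1 sample gave 35 to 42 rises and 8 to 10 falls in Pax5+/-, and 23 to 42 rises and 3 to 4 falls in WT mice. Under quantile normalization 25 genes rose and 5 fell in WT mice, and the median differences were 0.09 in Pax5+/- and 0.21 in WT mice, against 0.17 and 0.33. With only the contrast's groups fitted 26 rose in WT mice. Atp5d reversed in Pax5+/- under quantile normalization (-0.02, adjusted p = 0.711), and the cause was not tested. Between Pax5+/- and WT preleukemic cells 1 gene was higher when only these groups were fitted, 3 with the letter block, 1 without samples 21 to 24, 1 without samples 15, 17 and 20, and 0 to 1 when 1 sample was left out (1 without sample 20). Between leukemic groups 0 to 1 was lower (1 without sample 14), and 0 to 1 interaction was negative (1 without sample 20), when 1 sample was left out. No paired analysis was possible because the groups share no replicate numbers.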
